A study of Mus musculus with 11 samples.

Results

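The immediate early and early response genes described here were 35 mouse genes chosen by name and grouped by what their products do. They were 8 subunits of the AP-1 transcription factor (Fos, Fosb, Fosl1, Fosl2, Jun, Junb, Jund and Atf3), the Egr zinc finger factors Egr1, Egr2 and Egr3, the nuclear receptors Nr4a1, Nr4a2 and Nr4a3, and the response genes Ier2, Ier3 and Ier5. The others were Btg1, Btg2 and Zfp36, which act on mRNA decay, the MAP kinase phosphatases Dusp1, Dusp5 and Dusp6, the Krüppel-like factors Klf2, Klf4, Klf6 and Klf10, the transcription factors Myc and Maff, and the signalling proteins Arc, Socs3, Gadd45b, Gadd45g, Rhob and Errfi1. All 35 were found among the 55487 genes of the deposited count tables, and 28 passed the filter on low counts, which left 10505 genes for testing. Fosb, Fosl1, Egr2, Egr3, Dusp5, Myc and Arc did not pass, and a gene could pass through 1 genotype alone.

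Gastrocnemius, a hindlimb muscle, was profiled by QuantSeq 3' mRNA FWD sequencing, which reads polyadenylated transcripts near their 3' ends, from 450 ng of total RNA per library. There were 11 libraries, 4 of wild type, 3 of a Raptor knockout induced in muscle and 4 of a knockout of both Raptor and mTOR, induced in the same way and called the double knockout below. The Raptor knockout carried floxed Raptor alleles, and the double knockout floxed Raptor and floxed mTOR alleles, together with a Cre recombinase that carries a mutated domain of the estrogen receptor and whose expression from a human skeletal actin promoter places it in muscle fibres. All 3 groups, wild type included, received tamoxifen at 3 months of age, through chow for 7 weeks, and muscle was taken 7 months after it was begun. The sources used here do not state whether the wild-type mice carried Cre or floxed alleles. The labels do not say that each library came from a separate animal, so p-values measure the spread between these libraries.

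Immediate early genes are transcribed soon after a cell is stimulated, without new protein having to be made first. Growth factors, stress, calcium and contraction reach them through MAP kinases and calcium-dependent kinases, which activate the factors SRF with its ELK partners and CREB at their promoters. Many of the products are transcription factors, and others, such as the Dusp phosphatases, Socs3 and Zfp36, hold back the signal that induced them. In skeletal muscle, exercise, denervation, stretch and injury are known to raise many of these transcripts. Raptor is the defining subunit of mTOR complex 1, the growth-promoting kinase complex, and mTOR is the kinase it shares with mTOR complex 2.

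Promoter stretches of 8 members are shown because these genes held the short CREB site TGACG, its palindrome TGACGTCA or the SRF site called the CArG box in the bases just before their start. The sequences are from RefSeq on GRCm38.p6, read 5′ to 3′ on the gene's own strand, and each run ends before the annotated start. RefSeq windows were matched for 28 of the 35 members, and Arc, Egr1, Egr3, Fosl1, Ier2, Klf10 and Myc had none. Capitals mark TGACG on either strand (as TGACG or CGTCA) in Junb, Atf3, Nr4a2, Nr4a3 and Fos, TGACGTCA in Btg2 and Dusp1, and the CArG box in Zfp36. The stretches lie on the minus strand at chr8:84978749-84978878 (Junb), chr1:191183334-191183443 (Atf3), chr1:134079236-134079335 (Btg2), chr2:57124094-57124213 (Nr4a2), chr17:26508593-26508672 (Dusp1) and chr7:28379259-28379338 (Zfp36). Those on the plus strand are chr4:48045065-48045174 (Nr4a3) and chr12:85473750-85473869 (Fos).
Junb: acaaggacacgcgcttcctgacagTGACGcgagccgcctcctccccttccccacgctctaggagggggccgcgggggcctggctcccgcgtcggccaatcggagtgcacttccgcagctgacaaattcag
Atf3: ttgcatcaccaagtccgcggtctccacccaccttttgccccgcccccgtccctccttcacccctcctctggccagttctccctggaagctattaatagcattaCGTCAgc
Btg2: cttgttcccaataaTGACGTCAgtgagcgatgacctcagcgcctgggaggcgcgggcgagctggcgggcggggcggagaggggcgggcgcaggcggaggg
Nr4a2: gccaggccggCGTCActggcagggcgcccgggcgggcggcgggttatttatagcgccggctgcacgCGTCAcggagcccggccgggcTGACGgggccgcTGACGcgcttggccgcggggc
Nr4a3: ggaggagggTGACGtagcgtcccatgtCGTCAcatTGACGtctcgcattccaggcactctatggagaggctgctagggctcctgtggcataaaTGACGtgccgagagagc
Fos: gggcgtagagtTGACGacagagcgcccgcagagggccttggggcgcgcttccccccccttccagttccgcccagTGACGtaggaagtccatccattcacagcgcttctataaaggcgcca
Dusp1: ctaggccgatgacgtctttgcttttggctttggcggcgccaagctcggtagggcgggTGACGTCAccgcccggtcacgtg
Zfp36: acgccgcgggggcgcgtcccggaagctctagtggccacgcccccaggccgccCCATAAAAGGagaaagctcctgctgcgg
Over the 250 bases before the start, TGACG was present on either strand in 13 of the 28 members with a window, or 46.4%, beside 17.8% of all 32817 RefSeq windows of that length. They were Atf3, Btg1, Btg2, Dusp1, Dusp5, Fos, Fosb, Junb, Klf2, Klf4, Nr4a1, Nr4a2 and Nr4a3, and Nr4a1, Nr4a2 and Nr4a3 held 4 copies each. The palindrome TGACGTCA, which contains TGACG, was present in 2 members (7.14%, beside 1.55% of all windows). The CArG box was in Dusp5 and Zfp36 (7.14%, beside 1.47%), and GCGGGGGCG, the letters bound by Egr factors, was in 7 members (25% beside 2.58%). The AP-1 letters TGANTCA were in 0 members (6.75% of all windows) and TATAAA in 5 (17.9%, beside 12.4%). These are matches of letters only, and some RefSeq starts lie far from the outermost start of the gene in GENCODE M21: by 53656 bases for Dusp1, 34706 for Atf3, 12577 for Nr4a1, 1210 for Jund and 1025 for Zfp36.

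Library totals ran from 2791339 to 6328533 counts. The defining markers of fast muscle, such as Acta1 and Myh4, summed to between 91161 and 113866 counts-per-million (CPM, scaled by TMM) in every library. Rptor stood at 8.57 to 10.6 CPM in wild type, 3.85 to 4.99 in the Raptor knockout and 4.07 to 5.37 in the double knockout. Mtor stood at 15.2 to 28.2, 18.2 to 22.6 and 31.8 to 39.5 CPM, so its 3' tags were higher in the double knockout, not lower. The sources used here do not name the floxed exons, and these tags do not check the deletions. Xist was present in wild-type replicate 3 and in replicates 1 to 3 of the double knockout, and the other 7 libraries contained the Y-linked Ddx3y. The labels give no sex, and every Raptor-knockout library was of the second kind. Double-knockout replicates 3 and 4 came from a smaller sequencing run than the other 9 libraries.

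Against wild type, 12 early response genes were called higher in the double knockout and 16 of the 28 tested were not called. Of the 28 tested, 12 rose and 0 fell by edgeR's quasi-likelihood test at an adjusted p under 0.05, where 13% of all tested genes rose and 13.7% fell. They were Junb, Fosl2 and Atf3 of AP-1, Egr1, Nr4a2, Ier3, Ier5, Btg2, Dusp6, Klf10, Maff and Socs3, and their folds ran from 1.56 (Dusp6 and Ier3) to 8.45 (Atf3). With sequencing run as a covariate, or without the smaller run, 8 were called and Egr1, Nr4a2, Ier3 and Dusp6 were lost. Of all tested genes, 9.9% and 8.78% rose in these fits. The smaller run holds only double-knockout libraries, so both settings rest on replicates 1 and 2 of that group and are nearly the same check. In the main fit 26 of the 28 had a positive log2 fold change, and the median was 0.89 where that of all tested genes was 0.02. In 9 of them every double-knockout library lay above every wild-type library, as did 13.1% of all tested genes. In whole muscle, more cells of a type that transcribes a gene and more RNA of it per cell cannot be told apart.

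**Figure D1:**
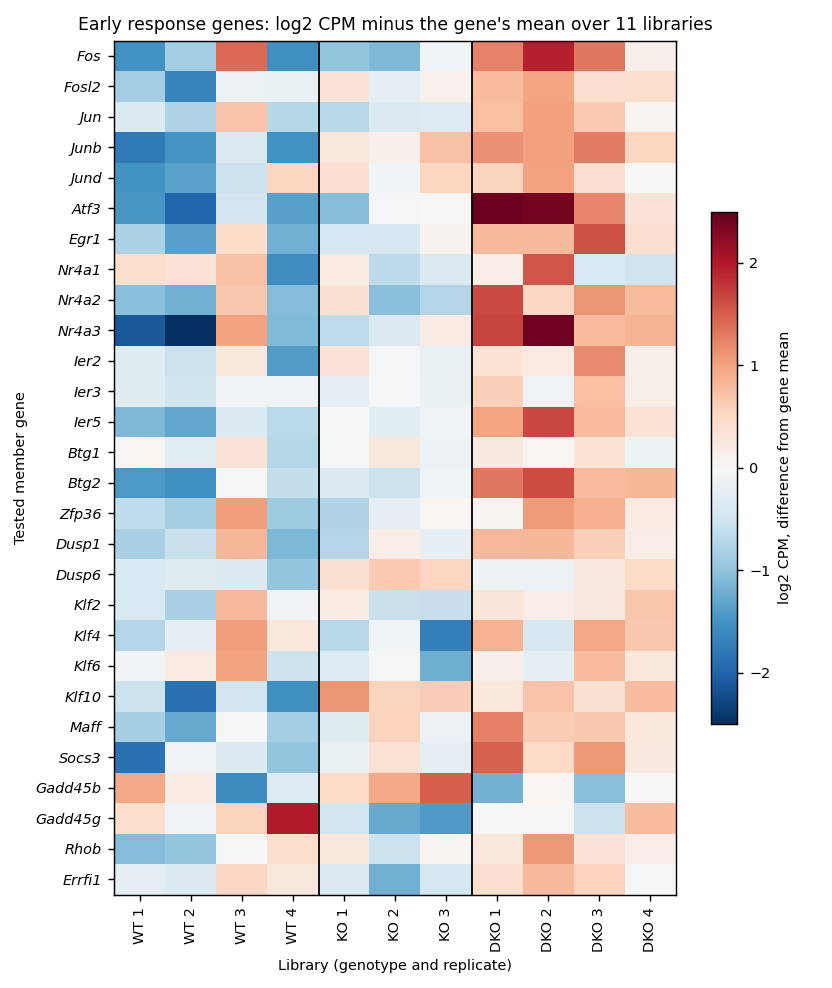
Level of each tested early response gene (vertical axis) in each of the 11 libraries (horizontal axis; KO is the Raptor knockout, DKO the double knockout). Colour gives log2 CPM minus the gene's mean over the libraries, and values past the end of the scale take its end colour; wild-type replicate 3 has more red cells than the other wild-type libraries, and Gadd45b and Gadd45g differ from most of the other genes.

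The wild-type group was not uniform in these genes. The mean log2 CPM of the 28 genes was 3.53, 3.39 and 3.63 in wild-type replicates 1, 2 and 4 and 4.49 in replicate 3. In the Raptor knockout it lay between 4.06 and 4.12, and in the double knockout at 4.94, 5.05, 4.88 and 4.58. Replicate 3 thus lay above every Raptor-knockout library and below every double-knockout library. It was the highest wild-type library in 22 of the 28 genes (78.6%, beside 24% of all tested genes) and exceeded the next wild-type library more than 2-fold in 9 (32.1%, beside 1.08%). The median coefficient of variation within wild type was 52.5% for the 28 genes, 26.2% without replicate 3 and 22.8% for all tested genes. Results are therefore given with and without this library where it decides a call.

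Junb encodes an AP-1 subunit that is also needed to keep muscle mass (ENSMUSG00000052837, GRCm38 chromosome 8, 84974484 to 84978718, protein coding). Its level was 3.68, 4.65, 10.7 and 4.51 CPM in wild-type replicates 1 to 4, 16.9, 15.2 and 23.5 in Raptor-knockout replicates 1 to 3 and 30.97, 28.8, 34.2 and 20.3 in double-knockout replicates 1 to 4. Wild-type replicate 3 was the highest of its group, and still every library of either knockout lay above it. Junb rose 4.63-fold in the double knockout (SE 0.29 on the log2 scale, edgeR adjusted p = 5.31e-05). The call held in 24 of 24 alternative fits (other normalization, filter, test or set of libraries), with log2 fold changes from 1.52 to 2.72. The 3' end of Junb is covered by Prdx2, a peroxiredoxin gene on the opposite strand, and the sources used here do not state the strand setting of the counts. Prdx2 itself stood at a mean of 95.5 CPM in wild type and 119.8 in the double knockout (log2 fold change 0.33, edgeR adjusted p = 0.102).

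Atf3, a stress-induced partner of the Jun proteins (ENSMUSG00000026628, chromosome 1, 191170296 to 191218039), had the largest fold of the 28 genes. It stood at 4.37, 2.86, 9.05 and 4.73 CPM in wild type, 5.90, 12.5 and 12.9 in the Raptor knockout and 72.7, 69.5, 30.7 and 16.3 in the double knockout. Double-knockout replicates 1 and 2 were far above replicates 3 and 4, which come from the smaller run, and all 4 lay above both other groups. Atf3 rose 8.45-fold over wild type (SE 0.53 on the log2 scale, edgeR adjusted p = 0.00169). The call held in 22 of 24 alternative fits and was lost among the libraries with Xist and among those with low Dbp. The log2 fold change of Atf3 was 2.63 among the 4 libraries with Xist, where wild type is replicate 3 alone, and 1.96 among the 7 without, where the double knockout is replicate 4 alone. With 1 library in an arm, neither value has a replicate check of its own.

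Fosl2, a Fos family member induced later than Fos, stood at 12.2, 6.79, 20.4 and 20.3 CPM in wild type, 28.5, 19.5 and 24.7 in the Raptor knockout and 39.2, 45.8, 30.7 and 31.1 in the double knockout. The lowest double-knockout library was above the highest of every other library. Fosl2 rose 2.39-fold (SE 0.26 on the log2 scale, edgeR adjusted p = 0.00254), a call lost only among the libraries without Xist (edgeR adjusted p = 0.175), of which 1 was a double knockout. Fos itself (ENSMUSG00000021250, chromosome 12, 85473890 to 85477273) stood at 5.06, 8.22, 41.8 and 4.96 CPM in wild type, 7.44, 6.77 and 14.7 in the Raptor knockout and 37.0, 60.6, 39.0 and 16.9 in the double knockout. Wild-type replicate 3 lay among the double-knockout libraries, and the other 3 wild-type libraries lay below all of them. Fos had a log2 fold change of 1.28 (95% interval -0.35 to 2.91, edgeR adjusted p = 0.231) and did not pass the test. Without wild-type replicate 3 it was 6.38-fold higher (edgeR adjusted p = 0.00095).

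Jun, the partner of Fos in the classical AP-1 dimer, followed the same layout. It stood at 77.1, 57.6, 161 and 59.1 CPM in wild type, 59.7, 75.5 and 77.8 in the Raptor knockout and 164, 199, 153 and 102 in the double knockout. Wild-type replicate 3 overlapped the double knockout, and with all libraries Jun did not pass (log2 fold change 0.79, SE 0.32, edgeR adjusted p = 0.0916). Without that library it was 2.35-fold higher (edgeR adjusted p = 0.000457). Jund, the subunit known for its steadier expression, stood at 8.28, 9.30, 16.6 and 35.6 CPM in wild type, 32.05, 23.0 and 35.2 in the Raptor knockout and 35.7, 49.6, 32.1 and 24.4 in the double knockout. Here wild-type replicate 4 was the highest of its group, and Jund did not pass (log2 fold change 1.0004, SE 0.41, edgeR adjusted p = 0.0962).

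**Figure D2:**
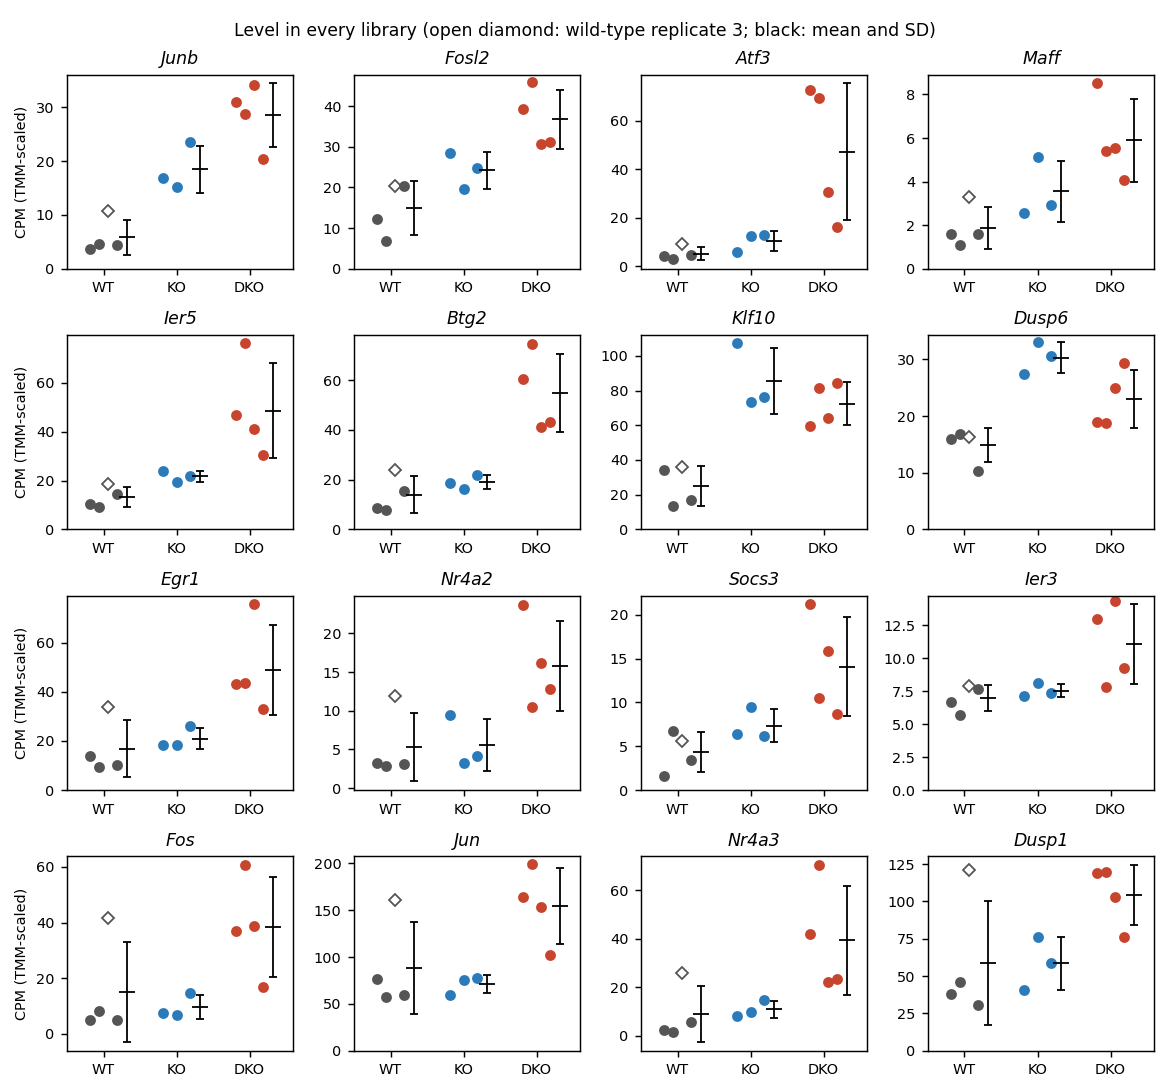
CPM (vertical axis) of 16 early response genes in every library, by genotype (WT wild type, KO Raptor knockout, DKO double knockout); points are libraries, open diamonds wild-type replicate 3, black bars mean and SD. In the rows that begin with Junb and Ier5, the diamond lies below every double-knockout point. In the row of Egr1, Nr4a2, Socs3 and Ier3 it does so only for Socs3. In the bottom row it lies among them for Fos, Jun and Nr4a3 and above them for Dusp1.

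Egr1, a zinc finger factor induced by growth signals and mechanical load, stood at 14.0, 9.30, 33.9 and 10.4 CPM in wild type, 18.5, 18.4 and 26.1 in the Raptor knockout and 43.3, 43.6, 75.5 and 33.1 in the double knockout. Wild-type replicate 3 overlapped double-knockout replicate 4, and the other wild-type libraries lay below every library of both knockouts. Egr1 rose 2.80-fold over wild type (SE 0.40 on the log2 scale, edgeR adjusted p = 0.0169). The call was lost without wild-type replicate 4 (edgeR adjusted p = 0.0546) and in 5 other alternatives, with adjusted p up to 0.293 among the libraries with Xist.

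The Nr4a nuclear receptors are induced by exercise and by signals through cyclic AMP. Nr4a3 stood at 2.53, 1.43, 25.8 and 5.64 CPM in wild type, 7.95, 9.75 and 14.7 in the Raptor knockout and 42.0, 70.3, 22.3 and 23.2 in the double knockout. Its coefficient of variation within wild type, 129%, was the highest of the 28 genes, and replicate 3 alone was at the double-knockout level. With all libraries Nr4a3 did not pass (log2 fold change 2.02, SE 0.75, edgeR adjusted p = 0.0817), and without wild-type replicate 3 it was 11.4-fold higher (edgeR adjusted p = 0.00103). Nr4a2 stood at 3.22, 2.86, 11.8 and 3.16 CPM in wild type, 9.49, 3.25 and 4.11 in the Raptor knockout and 23.7, 10.5, 16.2 and 12.8 in the double knockout. Wild-type replicate 3 again lay among the double-knockout libraries. Nr4a2 rose 2.77-fold (SE 0.47 on the log2 scale, edgeR adjusted p = 0.0384), but the call held in 11 of 24 alternative fits. It was lost without wild-type replicates 1, 2 or 4, Raptor-knockout replicate 3, or double-knockout replicates 1 or 3 (edgeR adjusted p up to 0.103). It was also lost with no filter, with run or Xist as a covariate, without the smaller run and in each subset by Xist or Dbp (edgeR adjusted p up to 0.526). Nr4a1, the receptor also known as Nur77, stood at 132, 120.5, 161 and 32.7 CPM in wild type, 112, 61.5 and 74.9 in the Raptor knockout and 109, 287, 74.5 and 68.9 in the double knockout. Its groups overlapped throughout, with double-knockout replicate 2 the highest library and wild-type replicate 4 the lowest (log2 fold change 0.27, SE 0.59, edgeR adjusted p = 0.769).

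Ier5, a regulator of heat shock factor 1, stood at 10.6, 9.30, 18.4 and 14.7 CPM in wild type, 23.8, 19.5 and 22.0 in the Raptor knockout and 47.1, 76.2, 41.1 and 30.5 in the double knockout. The 3 groups did not overlap. Ier5 rose 3.60-fold in the double knockout (SE 0.27 on the log2 scale, edgeR adjusted p = 0.000125), and the call held in 24 of 24 alternative fits. Ier3, a regulator of cell death, stood at 6.67, 5.72, 7.89 and 7.66 CPM in wild type and 13.0, 7.81, 14.3 and 9.30 in the double knockout. Double-knockout replicate 2 lay inside the wild-type range. Ier3 rose 1.56-fold (SE 0.22 on the log2 scale, edgeR adjusted p = 0.0407), close to the threshold, and kept its call in 8 of 24 alternative fits. Leaving out wild-type replicate 1, 2 or 3, Raptor-knockout replicate 1 or 3, or double-knockout replicate 1 or 3 ended it (edgeR adjusted p up to 0.143). So did no filter, only both groups in the fit, run or Xist as a covariate, leaving out the smaller run, the DESeq2 Wald test and each subset by Xist or Dbp (adjusted p up to 0.587). Ier2 stood between 1.35 and 5.43 CPM in wild type and between 4.94 and 10.6 in the double knockout and did not pass (log2 fold change 0.96, SE 0.36, edgeR adjusted p = 0.0614). Without wild-type replicate 3 it was 2.57-fold higher (edgeR adjusted p = 0.0168).

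Btg2, an antiproliferative factor that recruits the mRNA deadenylation machinery (ENSMUSG00000020423, chromosome 1, 134075170 to 134079120), stood at 8.51, 7.87, 24.0 and 15.6 CPM in wild type, 18.7, 16.2 and 22.0 in the Raptor knockout and 60.4, 74.6, 41.3 and 43.0 in the double knockout. Wild-type replicate 3 lay above every Raptor-knockout library, and the lowest double-knockout library was well above it. Btg2 rose 3.79-fold over wild type (SE 0.31 on the log2 scale, edgeR adjusted p = 0.000558), in 24 of 24 alternative fits. Its paralog Btg1 stood between 10.1 and 21.2 CPM in wild type and between 15.4 and 21.5 in the double knockout and did not pass (log2 fold change 0.23, SE 0.21, edgeR adjusted p = 0.466). Zfp36, which binds AU-rich elements and speeds the decay of inflammatory mRNAs, stood at 2.53, 2.15, 9.21 and 2.03 CPM in wild type, 2.31, 3.52 and 4.40 in the Raptor knockout and 4.42, 9.43, 8.22 and 4.94 in the double knockout. Only wild-type replicate 3 overlapped the double knockout, and Zfp36 did not pass (log2 fold change 0.67, SE 0.45, edgeR adjusted p = 0.305), while without that library it was 2.97-fold higher (edgeR adjusted p = 0.00478).

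Dusp1, which dephosphorylates p38, JNK and ERK kinases, stood at 38.2, 45.8, 120.7 and 30.9 CPM in wild type, 40.5, 76.1 and 58.7 in the Raptor knockout and 119, 119.6, 103 and 76.1 in the double knockout. Wild-type replicate 3 was the highest of all 11 libraries and the others of its group lay below the double knockout. Dusp1 did not pass (log2 fold change 0.81, SE 0.41, edgeR adjusted p = 0.173) and was 2.702-fold higher without wild-type replicate 3 (edgeR adjusted p = 0.000346). Dusp6, the cytoplasmic phosphatase of ERK, had another layout, with 15.9, 16.8, 16.3 and 10.4 CPM in wild type, 27.4, 33.0 and 30.5 in the Raptor knockout and 19.0, 18.9, 24.9 and 29.4 in the double knockout. Wild-type replicate 3 did not stand out here, and the Raptor-knockout libraries were the highest on average. Dusp6 rose 1.56-fold in the double knockout (SE 0.19 on the log2 scale, edgeR adjusted p = 0.0227), a call held in 17 of 24 alternative fits. It was lost without double-knockout replicate 3 or 4 (edgeR adjusted p up to 0.0882), with run as a covariate, without the smaller run and in each subset by Xist or Dbp (edgeR adjusted p up to 0.494).

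Klf10, a zinc finger factor induced by TGF-beta (ENSMUSG00000037465, chromosome 15, 38291463 to 38300706), stood at 34.1, 13.2, 35.9 and 16.7 CPM in wild type, 107, 73.4 and 76.0 in the Raptor knockout and 59.4, 81.3, 64.1 and 84.3 in the double knockout. Every library of either knockout lay above every wild-type library. Klf10 rose 2.85-fold in the double knockout (SE 0.28 on the log2 scale, edgeR adjusted p = 0.00138), in 24 of 24 alternative fits. The other Krüppel-like factors, which act in endothelial and muscle cells, did not pass: the log2 fold changes were 0.36 for Klf4, 0.33 for Klf2 and 0.01 for Klf6. Wild-type replicate 3 was at 73.7 CPM for Klf2, 74.8 for Klf4 and 73.4 for Klf6, above every other library in each. Without it Klf2 was 1.66-fold higher in the double knockout (edgeR adjusted p = 0.0265).

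Maff, a small Maf factor without a transactivation domain, stood at 1.61, 1.07, 3.29 and 1.58 CPM in wild type, 2.56, 5.14 and 2.94 in the Raptor knockout and 8.53, 5.39, 5.57 and 4.07 in the double knockout, from 3 to 27 counts a library. The double knockout lay above every wild-type library, and Maff rose 2.87-fold (SE 0.37 on the log2 scale, edgeR adjusted p = 0.00564). The call was lost among the libraries with Xist, those without it and those with low Dbp (edgeR adjusted p up to 0.239). Socs3, the inhibitor of cytokine signalling through JAK kinases and STAT3, stood at 1.61, 6.79, 5.59 and 3.38 CPM in wild type, 6.41, 9.48 and 6.16 in the Raptor knockout and 21.2, 10.5, 15.9 and 8.72 in the double knockout. Wild-type replicate 2, not 3, was the highest of its group, and all lay below the double knockout. Socs3 rose 3.28-fold (SE 0.36 on the log2 scale, edgeR adjusted p = 0.00264), and the call was lost only among the libraries without Xist (edgeR adjusted p = 0.322). Rhob, an endosomal GTPase, stood between 11.05 and 32.7 CPM in wild type and between 27.0 and 51.7 in the double knockout and did not pass (log2 fold change 0.79, SE 0.34, edgeR adjusted p = 0.106).

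The growth arrest genes Gadd45b and Gadd45g were the exceptions in sign. Gadd45b stood at 10.1, 5.72, 1.32 and 3.83 CPM in wild type, 7.18, 10.0 and 15.0 in the Raptor knockout and 1.90, 5.12, 2.12 and 4.94 in the double knockout. Wild-type replicate 3 was the lowest of all 11 libraries, the reverse of its place in Fos or Dusp1. Gadd45g, a stress sensor of the same family, stood at 45.3, 31.1, 48.8 and 132 CPM in wild type, 24.1, 13.5 and 12.0 in the Raptor knockout and 33.2, 33.4, 22.8 and 57.3 in the double knockout. Neither passed in the double knockout against wild type, with log2 fold changes of -0.52 (edgeR adjusted p = 0.525) and -0.82 (edgeR adjusted p = 0.23). Errfi1, an inhibitor of the EGF receptor, stood at 11.5, 10.7, 19.7 and 16.7 CPM in wild type, 10.5, 5.69 and 9.98 in the Raptor knockout and 18.3, 24.5, 20.7 and 13.4 in the double knockout. Its wild-type and double-knockout ranges overlapped (log2 fold change 0.37, SE 0.24, edgeR adjusted p = 0.286), and the Raptor-knockout libraries were the lowest 3 of the 11.

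**Figure D3:**
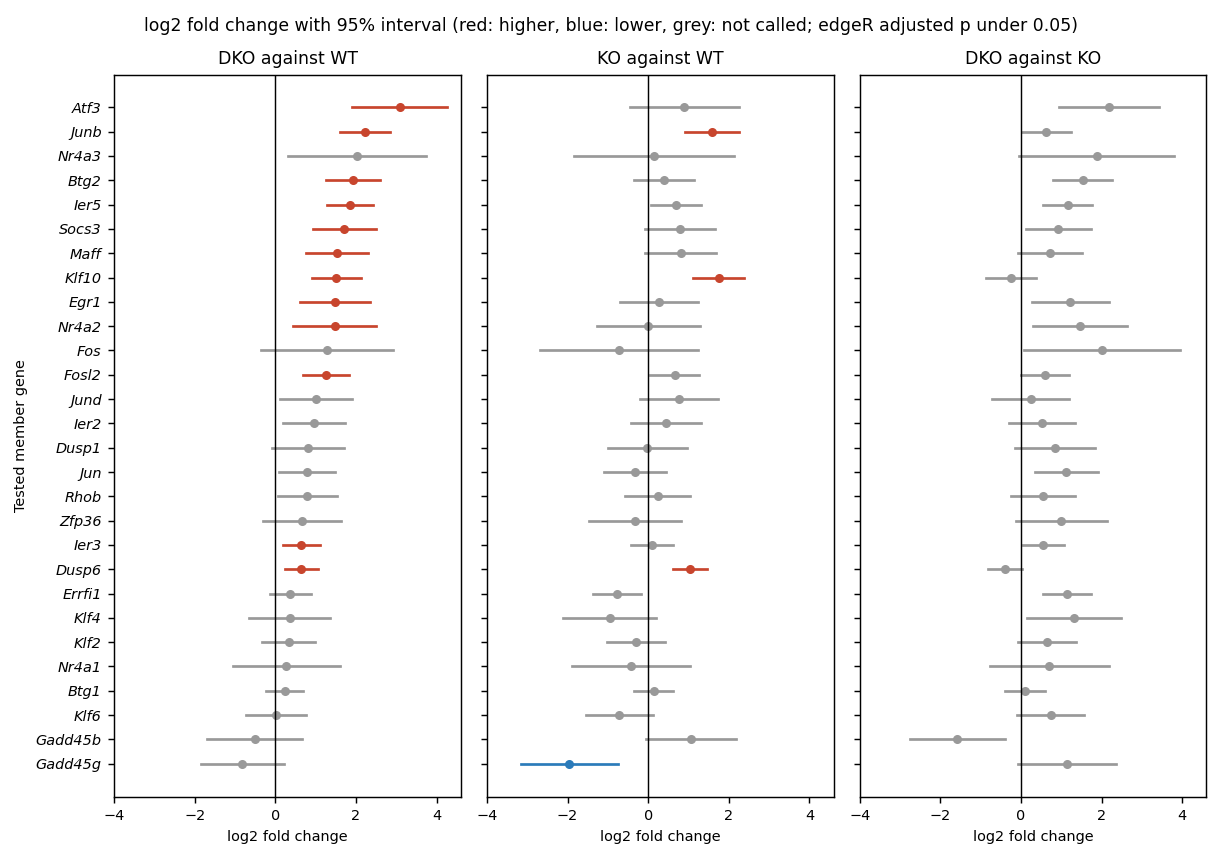
Log2 fold change (horizontal axis) with its 95% interval for each tested early response gene (vertical axis) in the 3 comparisons; red marks genes called higher and blue genes called lower by edgeR at an adjusted p under 0.05, grey the rest. Red marks 12 genes in the left panel and 3 in the middle one, Gadd45g is blue in the middle panel, and the right panel is grey throughout.

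The 7 untested genes had at most 26 counts in a library. Fosb, whose truncated product accumulates under repeated stimulation, had 1, 0, 26 and 5 counts in wild type, 0, 3 and 1 in the Raptor knockout and 3, 9, 21 and 7 in the double knockout, and again wild-type replicate 3 was the highest of its group. Myc, the growth-promoting factor, had 2, 1, 2 and 0, 4, 4 and 6 and 4, 6, 4 and 3 counts. Scaled to CPM, every library of either knockout lay above every wild-type library for Myc. Arc, known from synapses, had 0 counts in all 4 wild-type libraries, 6, 1 and 2 in the Raptor knockout and 2, 3, 1 and 0 in the double knockout. A count of 0 allows up to 3 counts, or 0.493 to 1.07 CPM in these wild-type libraries, by counting error alone. Egr2 had 3, 2, 1 and 8, 3, 2 and 6 and 5, 16, 12 and 5 counts, Egr3 between 0 and 9, Dusp5 between 0 and 8 and Fosl1 between 0 and 3. With no filter on low counts, Egr2 passed in the double knockout against wild type (3.09-fold, edgeR adjusted p = 0.0308), Arc passed between the Raptor knockout and wild type (edgeR adjusted p = 0.0184), and the other 5 passed in no comparison.

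Leaving out wild-type replicate 3 raised the number of the 28 genes called higher in the double knockout against wild type from 12 to 18, where 12% of all tested genes were called higher in that fit. The library was left out because it was high in these same genes, so the gain is a description. Of these 18, 11 were among the 12, Ier3 was lost, and Fos, Jun, Nr4a3, Ier2, Zfp36, Dusp1 and Klf2 were gained. The median log2 fold change went from 0.89 to 1.396. Over 24 alternative fits the edgeR, DESeq2 or limma adjusted p of these 7 genes ran up to 0.866 for Fos, 0.873 for Jun, 0.616 for Nr4a3, 0.652 for Ier2, 0.8292 for Zfp36, 0.762 for Dusp1 and 0.868 for Klf2, and for Fos, Zfp36, Dusp1 and Klf2 no other of these fits was under 0.05. Wild-type replicates 1, 2 and 4 all lay below every double-knockout library in 19 of the 28 genes (67.9%, beside 16.3% of all tested genes). That is likewise a description of libraries chosen on these genes. Replicate 3 was at or above the lowest double-knockout library in 16 of the 28 (57.1%, beside 69.8% of all tested genes). These 19 genes had layouts of 2 kinds. In Junb, Fosl2, Atf3, Ier5, Btg2, Klf10, Dusp6, Maff and Socs3 even replicate 3 lay below the double knockout, and in Fos, Jun, Egr1, Nr4a2, Nr4a3, Ier2, Ier3, Zfp36, Dusp1 and Klf2 it alone of the wild-type libraries reached the double-knockout range.

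**Figure D4:**
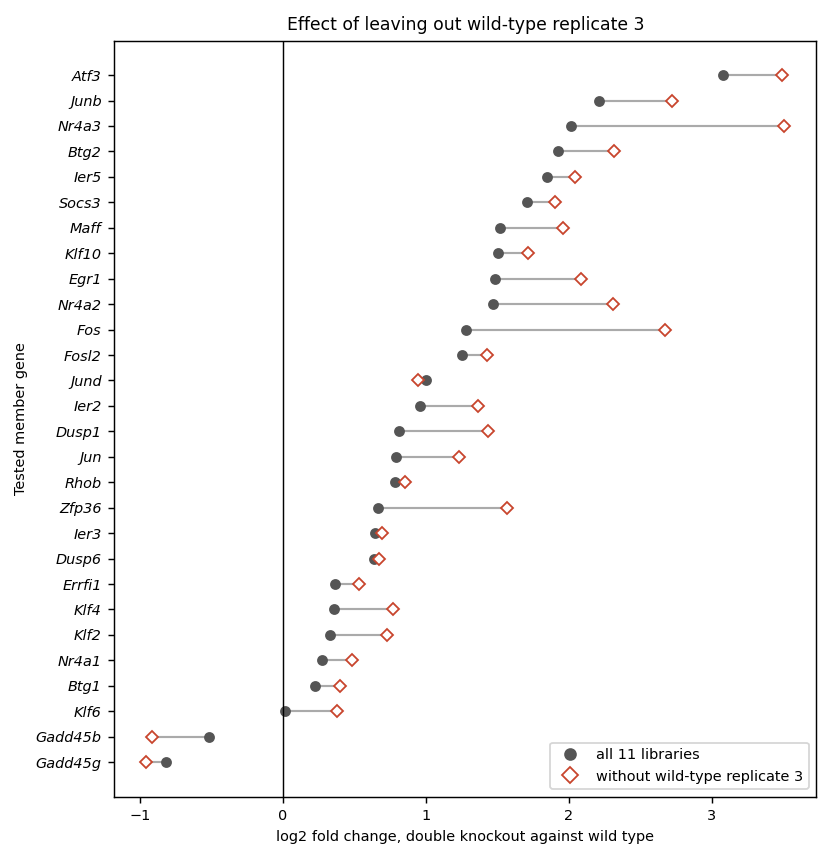
Log2 fold change of the double knockout against wild type (horizontal axis) for each tested early response gene (vertical axis), with all 11 libraries (filled) and without wild-type replicate 3 (open diamonds). The shift is widest for Nr4a3 and Fos, and for Gadd45b, Gadd45g and Jund the diamond lies to the left.

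Wild-type replicate 3 was also the only wild-type library with Xist, and 3 of the 4 double-knockout libraries had Xist. Within the 4 libraries with Xist, a contrast of 1 wild-type library against 3 in which the lone library is assumed to vary like the others, 8 of the early response genes were called higher, beside 4.75% of all genes. Within the 7 libraries without Xist, where the double knockout is replicate 4 alone, 7 were called, beside 2.13% of all genes, and the median log2 fold change was 1.04. Junb, Btg2, Ier5 and Klf10 were called in both. Double-knockout replicate 4 was the lowest of its group in 15 of the 28 genes (53.6%, beside 24.1% of all tested genes). It lay above wild-type replicates 1, 2 and 4 in 21 of the 28 (75%, beside 31.6%).

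The clock output gene Dbp, singled out after its values were seen, separated the libraries in another way. It stood at 34.1, 41.8, 4.44 and 7.21 CPM in wild type, 48.7, 37.1 and 37.0 in the Raptor knockout and 10.7, 9.70, 10.9 and 11.6 in the double knockout. Wild-type replicates 3 and 4 thus lay with the double knockout below 20 CPM, and wild-type replicates 1 and 2 with the Raptor knockout above it. The sources used here give no time of day of collection. Among the 6 libraries with low Dbp, 6 genes were called higher in the double knockout (Junb, Fosl2, Ier5, Btg2, Klf10 and Socs3), beside 5.39% of all genes, with a median log2 fold change of 0.59. Among the 5 with high Dbp, 10 were called higher in the Raptor knockout (Junb, Jund, Fosl2, Atf3, Nr4a3, Ier5, Btg2, Dusp6, Klf10 and Rhob), beside 8.69% of all genes, with a median of 0.65. The part of collection time, sex or handling in these results was not tested.

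**Figure D5:**
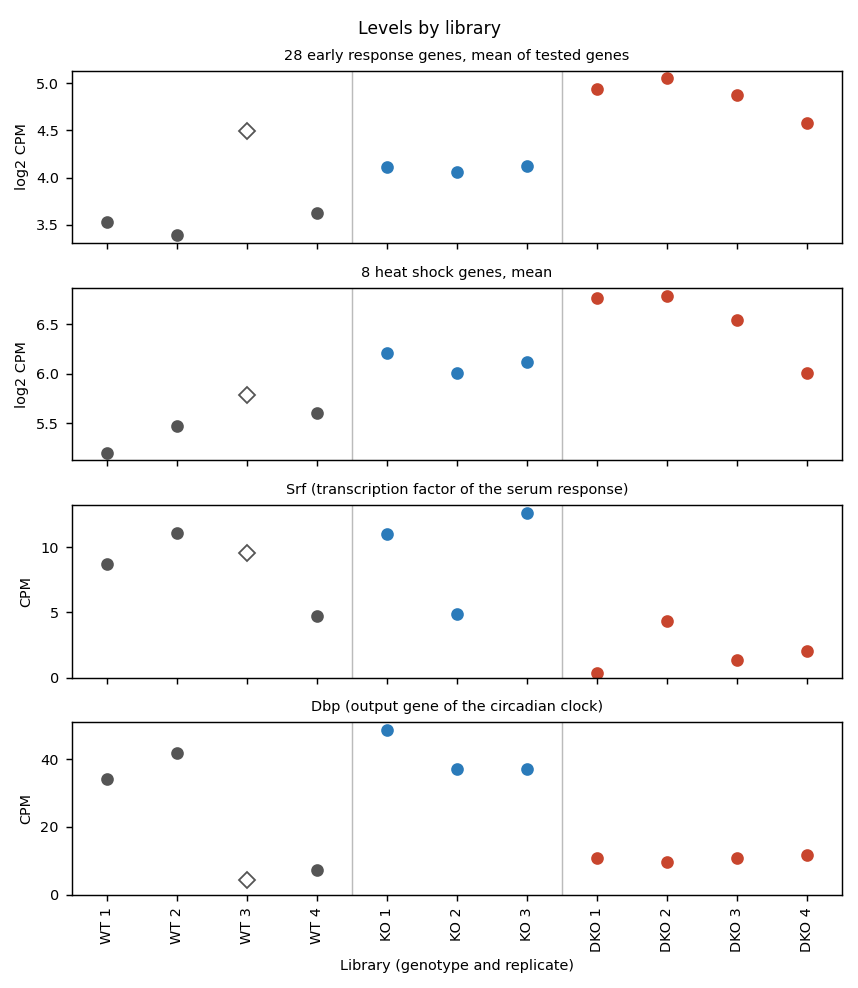
Levels by library (horizontal axis): mean log2 CPM of the 28 tested early response genes and of 8 heat shock genes, and CPM of Srf and Dbp (vertical axes); the open diamond is wild-type replicate 3. The early response genes of that library lie at 4.49, nearer the double knockout than the rest of wild type, its heat shock genes do not, and Dbp is low in wild-type replicates 3 and 4 and in the double knockout.

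Against wild type, the Raptor knockout differed in fewer of these genes. Of the 28, 3 rose (Junb, Klf10 and Dusp6; 8.73% of all tested genes rose) and 1 fell (Gadd45g; 9.43% fell), and the median log2 fold change was 0.19. That median was 0.67 without wild-type replicate 3, 0.60 with Xist as a covariate and 0.68 among the libraries without Xist. A further 3 had an unadjusted p under 0.05 without passing. In all, 7 of the 28 had such a p, beside 3333 of the 10505 tested genes. This comparison uses the same 4 wild-type libraries as the one above, so the results of both are not independent. Klf10 rose 3.37-fold (SE 0.29 on the log2 scale, edgeR adjusted p = 0.00118), Junb 2.99-fold (SE 0.32 on the log2 scale, edgeR adjusted p = 0.00262) and Dusp6 2.05-fold (SE 0.20 on the log2 scale, edgeR adjusted p = 0.00216). Each of these 3 calls held in 23 of 23 alternative fits. Those that left out double-knockout libraries, or took the run as a covariate, kept every library compared here and so check the calls little. For these 3 genes every Raptor-knockout library lay above every wild-type library, replicate 3 included. Such separation was found in 4 of the 28 genes, beside 14% of all tested genes. Every Raptor-knockout library lay below every wild-type library in 2 of the 28, beside 13.2% of all tested genes.

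In the Raptor knockout Gadd45g fell by 1.96 as a log2 fold change (SE 0.54, edgeR adjusted p = 0.0335), with all 3 libraries below every wild-type library. The wild-type mean owed much to replicate 4, at 131.9 CPM. The call was lost without Raptor-knockout replicate 2 or 3, which leave 2 libraries in that group, with no filter and among the libraries without Xist (edgeR adjusted p up to 0.123). Errfi1 lay lower in every Raptor-knockout library than in any wild-type library without passing (log2 fold change -0.77, SE 0.28, edgeR adjusted p = 0.0693). Ier5 lay higher in each, also without passing (log2 fold change 0.69, SE 0.29, edgeR adjusted p = 0.12). In the 9 genes in which wild-type replicate 3 exceeded the next wild-type library more than 2-fold, log2 fold changes here ran from -0.73 for Fos (95% interval -2.68 to 1.23) to 1.58 for Junb. They were -0.34 for Zfp36, -0.33 for Jun, -0.03 for Dusp1, 0.01 for Nr4a2, 0.14 for Nr4a3, 0.26 for Egr1 and 0.80 for Maff.

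Between the knockouts the early response genes mostly lay higher in the double knockout, but none passed edgeR's test. In this comparison 0 of the 28 were called in either direction, as were 0.00952% (1 gene) of all tested genes in the higher and 0.019% (2 genes) in the lower direction, or 0.0286% in either. An unadjusted p under 0.05 was reached by 13 of the 28, beside 997 of the 10505 genes, and 25 of the 28 had a positive log2 fold change, with a median of 0.79 where that of all tested genes was 0.01. The members' median was 0.29 with Xist as a covariate and 0.44 among the libraries without Xist, which are every Raptor-knockout library and double-knockout replicate 4 on the knockout side. Every double-knockout library lay above every Raptor-knockout library in 12 genes, beside 5.18% of all tested genes. They were Atf3, Fos, Fosl2, Jun, Egr1, Nr4a2, Nr4a3, Ier5, Btg2, Zfp36, Dusp1 and Errfi1. Gadd45b lay lower in every double-knockout library (7.03% of all tested genes did), with a log2 fold change of -1.58 (edgeR adjusted p = 0.351).

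The largest differences between the knockouts were 4.55-fold for Atf3 (95% interval 0.95 to 3.42 on the log2 scale, edgeR adjusted p = 0.206), 4.01-fold for Fos (0.07 to 3.94, edgeR adjusted p = 0.513) and 3.67-fold for Nr4a3 (-0.05 to 3.80, edgeR adjusted p = 0.54). For Btg2 the fold was 2.89 (0.79 to 2.27, edgeR adjusted p = 0.142). The DESeq2 Wald test called 5 genes higher in the double knockout, namely Btg2 (adjusted p = 0.00229), Ier5 (0.0212), Atf3 (0.0340), Errfi1 (0.0340) and Jun (0.0495), beside 0.447% of all genes. Over 22 alternative fits each of these 5 was called in 2 or 3, with an adjusted p of up to 1. The log2 fold change of Atf3 went from 2.19 to 0.89 with Xist as a covariate and 0.66 among the libraries without Xist. That of Ier5 went from 1.16 to 0.55 and 0.49, and that of Btg2 from 1.53 to 0.93 and 1.19. Between the knockouts, the genes that rose in the Raptor knockout had log2 fold changes of 0.63 for Junb (0.01 to 1.25), -0.24 for Klf10 (-0.86 to 0.38) and -0.40 for Dusp6 (-0.82 to 0.03). They were picked for high levels in the Raptor-knockout libraries, which are subtracted here, so low values are partly built in.

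Across the 11 libraries most of the 28 genes moved as a group. The correlation of a gene's log2 CPM with the mean of the other 27 was 0.96 for Btg2, 0.95 for Nr4a3, 0.94 for Ier5, 0.94 for Egr1 and 0.91 for Atf3. It was lowest for Gadd45b at -0.56 and Gadd45g at -0.22, and low for Dusp6 (0.29), Klf6 (0.28) and Nr4a1 (0.30). The points share genotype and library, so these values are a description. The TGACG letters did not follow the calls: they were in 4 of the 10 genes called in the double knockout against wild type that had a window, 7 of the 15 tested but not called and 2 of the 3 untested.

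The kinases and factors that act upstream of these genes were counted by mRNA level, and their activity was not measured. Of 34 tested, 4 rose and 12 fell in the double knockout against wild type, with a median of -0.13. Of all tested genes, 13% rose and 13.7% fell there. In the Raptor knockout 1 rose and 5 fell, where 8.73% of all tested genes rose and 9.43% fell. The ribosomal S6 kinase gene Rps6ka2 fell from 31.8 ± 4.97 to 11.3 ± 3.12 CPM (log2 fold change -1.48, SE 0.20, edgeR adjusted p = 4.35e-05) and the JNK gene Mapk9 from 33.6 ± 5.31 to 14.2 ± 2.31 (log2 fold change -1.25, SE 0.19, edgeR adjusted p = 0.000115). Rps6ka1 rose from 2.97 ± 0.944 to 7.91 ± 2.90 (log2 fold change 1.38, SE 0.31, edgeR adjusted p = 0.00356) and Stat3, a factor that drives Socs3, from 54.5 ± 5.43 to 94.9 ± 19.6 (log2 fold change 0.80, SE 0.15, edgeR adjusted p = 0.00117). Srf, singled out after its values were seen because it encodes the serum response factor, stood at 8.74, 11.1, 9.54 and 4.73 CPM in wild type, 11.02, 4.87 and 12.6 in the Raptor knockout and 0.316, 4.31, 1.33 and 2.03 in the double knockout. Every double-knockout library was below every other library, and Srf fell by 2.03 on the log2 scale against wild type (SE 0.48, edgeR adjusted p = 0.00648). In the Raptor knockout Mapk9 (log2 fold change -1.02, SE 0.20, edgeR adjusted p = 0.00208), Nfatc3 (log2 fold change -0.89, SE 0.24, edgeR adjusted p = 0.0162) and Crtc3 (log2 fold change -0.80, SE 0.22, edgeR adjusted p = 0.0179) fell, and the calcium-responsive Nfatc2 rose (log2 fold change 1.01, SE 0.29, edgeR adjusted p = 0.0254).

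A list of 54 other early response genes, 43 of them tested, had 14 higher and 4 lower in the double knockout against wild type. Their median was 0.52, and of all tested genes 13% rose and 13.7% fell. Rcan1, the calcineurin inhibitor, stood at 32.2, 37.5, 26.6 and 33.1 CPM in wild type, 85.9, 83.7 and 92.2 in the Raptor knockout and 146, 121.2, 96.5 and 63.1 in the double knockout. The knockouts did not overlap wild type, and Rcan1 rose in both (double knockout log2 fold change 1.72, SE 0.21, edgeR adjusted p = 1.93e-05; Raptor knockout log2 fold change 1.44, SE 0.22, edgeR adjusted p = 0.000311). In the double knockout Id2, an inhibitor of basic helix-loop-helix factors (log2 fold change 1.23, SE 0.23, edgeR adjusted p = 0.000811), the survival gene Mcl1 (log2 fold change 0.67, SE 0.13, edgeR adjusted p = 0.000825) and the kinase gene Pim3 (log2 fold change 0.85, SE 0.16, edgeR adjusted p = 0.00108) also rose. In the Raptor knockout 4 rose and 7 fell, with a median of 0.27, where 8.73% of all tested genes rose and 9.43% fell. The falls included Sgk1, a kinase downstream of mTOR complex 2 and glucocorticoids (log2 fold change -1.59, SE 0.21, edgeR adjusted p = 0.000105), and the JNK phosphatase Dusp8 (log2 fold change -1.37, SE 0.25, edgeR adjusted p = 0.00115), and Irf1, an interferon response factor, rose (log2 fold change 1.35, SE 0.32, edgeR adjusted p = 0.00769).

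Heat shock genes of acute stress moved beside the early response genes. Of 8 tested, 6 rose and 0 fell in the double knockout against wild type, and 3 rose and 1 (Hsph1) fell in the Raptor knockout. Of all tested genes, 13% rose and 13.7% fell in the double knockout, and 8.73% rose and 9.43% fell in the Raptor knockout. Hspa1b, an inducible Hsp70 chaperone gene, stood at 1.84, 2.86, 6.58 and 2.48 CPM in wild type, 13.3, 14.6 and 11.4 in the Raptor knockout and 26.5, 30.2, 20.4 and 10.5 in the double knockout. Wild-type replicate 3 was the highest of its group, and both knockouts lay above it. Hspa1b (log2 fold change 2.58, SE 0.38, edgeR adjusted p = 0.00019), its near-identical copy Hspa1a (log2 fold change 2.40, SE 0.42, edgeR adjusted p = 0.00129), Hspa8 (log2 fold change 0.92, SE 0.14, edgeR adjusted p = 0.000175) and Hsp90aa1 (log2 fold change 0.79, SE 0.18, edgeR adjusted p = 0.00322) rose in the double knockout. How reads were divided between Hspa1a and Hspa1b is uncertain. Of 14 glucocorticoid and clock genes, 1 rose (Per2, log2 fold change 1.24, SE 0.26, edgeR adjusted p = 0.00212) and 1 fell (Klf15, log2 fold change -1.60, SE 0.31, edgeR adjusted p = 0.00117) in the double knockout, and 2 rose and 4 fell in the Raptor knockout. The fuel-switch kinase gene Pdk4, singled out after its values were seen, stood at 17.3, 9.30, 145 and 3.38 CPM in wild type, and replicate 3 was far above the rest.

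Markers of other cell types in muscle were counted in the same way, beside the same shares of all tested genes. These were 13% higher and 13.7% lower in the double knockout, and 8.73% higher and 9.43% lower in the Raptor knockout. Macrophage and monocyte markers had 7 of 12 tested higher in the double knockout and 5 of 12 in the Raptor knockout against wild type, with 0 lower. Their summed level was 87.6 to 152 CPM in wild type, 137 to 265 in the Raptor knockout and 183 to 246 in the double knockout, with wild-type replicate 3 at 128. Fibroblast and fibro-adipogenic markers had 8 of 11 higher in the double knockout and 4 of 11 in the Raptor knockout, and summed to 1035 to 1683, 1726 to 1887 and 1975 to 2204 CPM, with replicate 3 at 1683. Col3a1, a fibrillar collagen gene, rose in both (log2 fold change 1.53, SE 0.24, edgeR adjusted p = 0.000394 in the double knockout). Of the satellite cell markers 2 of 5 tested (Myod1 and Itga7) rose in each knockout. Endothelial markers had 0 of 11 called in either comparison and summed to 207 to 304 CPM over all libraries. Neutrophil markers summed to 2.94 to 18.6 CPM except in double-knockout replicate 3, at 136.5, where S100a9 was at 61.7, and Ly6g was at 0 in all libraries. None of these lists had a gene called between the knockouts, where 0.0286% of all tested genes were called. The part of other cell types in the early response genes was not tested.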

How the data were processed

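Per the submitters' processing notes, the authors used fastp 0.20.0, STAR 2.7.0 and RSEM 1.3.3 with GRCm38; their deposited tables hold expected counts per gene, not normalized, and TPM. The sources used here give no annotation release, filter or strand setting. Another 6 columns of these tables could not be tied to a sample and were left out. Gene positions are from GENCODE M21 and promoter sequences from RefSeq (GRCm38.p6).

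The expected counts as deposited were rounded, since 2.25% were not whole, which changed a library total by at most 30.2. The test was edgeR 4.0.16 (R 4.3.3): filterByExpr by group, TMM and a robust quasi-likelihood fit over all 11 libraries with no covariate, then two-sided tests of 3 contrasts with Benjamini-Hochberg adjustment over the 10505 genes of each. A standard error is the log2 fold change divided by the square root of F, and intervals are at 95%. The fit had 8 residual degrees of freedom and a biological coefficient of variation of 20.6%. No libraries agreed within counting noise (lowest chi-square per degree of freedom 3.34). The main edgeR fit of the double knockout against wild type was tested on simulated data. The other contrasts, the alternative fits and the promoter search were not. Levels are CPM scaled by TMM, and ± gives the SD over the libraries of a group.

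Alternatives were DESeq2 1.42.0 size factors, library totals, no filter, only the groups compared, sequencing run or Xist as a covariate, subsets by run or Xist, the DESeq2 Wald test, leaving out single libraries, and limma 3.58.1 on log2 of the deposited TPM plus 1 or 0.1 (genes averaging 1 TPM or more). A fit that leaves out only libraries of the third genotype keeps every library of a comparison and so checks its calls little. The subsets with Xist only and by Dbp were chosen after seeing the data.

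The members, lists and tests were chosen with earlier results of these data known. Values per library are given for members called in any contrast or apart in level. Beyond them Rptor, Mtor and, from each list, up to 4 genes with the smallest adjusted p were named (where none passed, the 2 with the highest mean CPM).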

Additional observations from a re-analysis of the deposited data

Results flagged for a closer look

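In the 28 tested early response genes, the highest or lowest library of each group of 4 was compared with its neighbour by Dixon's ratio, 56 checks of wild type and double knockout. The ratio passed its 95% critical value in 8 of them. About 1 in 20, or 2.8 of 56, would pass by chance if levels were normal and the genes independent. Most of these genes moved as a group across the libraries, so flags of the same library are not separate. Other genes were not screened, so the 8 cannot be set beside a share of all tested genes. In 5 of the 8 the library was wild-type replicate 3, the highest of its group: Fos at 41.8 CPM with the others at 4.96 to 8.22, Junb at 10.7 (others 3.68 to 4.65), Nr4a2 at 11.8 (others 2.86 to 3.22), Zfp36 at 9.21 (others 2.03 to 2.53) and Dusp1 at 120.7 (others 30.9 to 45.8). Wild-type replicate 4 was lowest for Dusp6, at 10.4 CPM with the others at 15.9 to 16.8. Double-knockout replicate 3 was highest for Ier2, at 10.6 CPM with the others at 4.94 to 5.69, and double-knockout replicate 2 was highest for Rhob, at 51.7 with the others at 27.0 to 30.5.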

How the results depend on the processing

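With all 11 libraries, 12 members were higher in the double knockout against wild type, and the count was 7 among the libraries without Xist and 6 among those with low Dbp. It was 8 with sequencing run as a covariate and 8 without the smaller run, where 9.9% and 8.78% of all genes were higher, and 0 were lower in every alternative. In the Raptor knockout against wild type 3 were higher, against 5 with Xist as a covariate, 7 among the libraries without Xist and 10 among those with high Dbp. The 1 lower became 0 among the libraries without Xist and 2 with limma on log2 TPM at either pseudocount. Between the knockouts 0 were higher, against 2 with no filter, 3 with only both groups in the fit, 1 with the run as a covariate, 1 without the smaller run and 5 by the DESeq2 Wald test. With each library left out in turn, the counts ran from 9 to 18 and from 3 to 4 (higher in the double and in the Raptor knockout against wild type), from 0 to 1 (lower in the Raptor knockout, 0 without its replicate 2 or 3) and from 0 to 2 (higher between the knockouts, 2 without wild-type replicate 3, 0 without any other library), and stayed 0 for both counts of lower genes in the double knockout. With library totals in place of TMM, which put the median of all genes at 0.25 in the double knockout against wild type, 15 members were higher where 23% of all genes were. The causes of these shifts were not tested, and the subsets also hold fewer libraries. No paired analysis was possible because the replicate numbers follow the order of the sample records and the labels pair no libraries. Depth limits most the 7 untested genes and, of those tested, Maff, Ier2 and Zfp36, which had the fewest counts.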
